A study of Mus musculus with 159 samples.

Results

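The prefrontal cortex (PFC) of mice was examined 1 week after the second of 2 injections of lipopolysaccharide (LPS), a component of the outer wall of Gram-negative bacteria, and was compared with the PFC of mice injected with saline. The comparison took every array titled as LPS treated or LPS control in PFC, 10 of each, which made 20 of the 159 arrays of the series, and every transcript with values in them, which made 11508 of 13983 probes. All the mice were female and of the inbred C57BL/6J strain, 2.5 months old by the labels, and each array held the RNA of 1 mouse. LPS was given intraperitoneally at 1 mg/kg, the injections were 1 week apart, and the PFC was cut from the front end of the cortex after the olfactory bulbs had been taken off. The labels give water as the treatment of the LPS controls, whereas the design text and the methods give saline injections, and the latter was followed. The study set this test beside 3 tests of ethanol drinking, to ask whether ethanol and immune activation change the same genes, and it measured liver as well.

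LPS is sensed by Toll-like receptor 4 together with the proteins MD-2 and CD14, and in brain this pathway is best known from microglia, the resident phagocytes, and from cells of the vessel walls and meninges. Its early products are cytokines and interferons. Phagocytes hold lysozyme, Fc receptors and the complement protein C1q, and interferons raise genes of antigen display such as B2m.

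Values are log2 intensities of Illumina bead arrays, and a change is the mean of LPS mice less the mean of saline mice on that scale, with its standard error (SE). They ran from 8.15 to 15.45, with array medians between 9.15 and 9.16, so that many transcripts lay near the lowest values, where a decrease cannot be seen. At most 2 values of a transcript were blank, and 1354 transcripts held a blank. No single array stood apart, and the least similar one still had a mean correlation of 0.993 with the rest. A group of saline mice did lie together on the second principal component, an axis that held 10.54% of the variance between arrays. Saline mice 1 to 4 lay there between 4.38 and 4.80, and all other arrays between -5.17 and 2.55. The reason was not tested. Transcripts of cortical projection neurons marked the tissue as cortex, with Slc17a7, a vesicular glutamate transporter, between 12.31 and 12.75 in all 20 mice. Genes that are best known from striatum were also measured, with Ppp1r1b (DARPP-32) between 10.36 and 11.58. In tissue samples, a change in the number of cells of a type and a change in RNA per cell cannot be told apart.

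By limma, 1103 of 11508 transcripts (9.58%) were differentially expressed (DE), which means an unadjusted p under 0.05, with 531 higher after LPS (4.61%) and 572 lower (4.97%), while 48.7% of all transcripts had a change above 0. After Benjamini-Hochberg adjustment over all transcripts, 13 had an adjusted p under 0.05 (0.113%), of which 10 rose and 3 fell. Changes were small, with a median size of 0.098 among DE transcripts, which is 1.07-fold. Only 22 DE transcripts changed by at least 1.2-fold, and 21 of them were higher after LPS. The saline and LPS groups did not overlap at all for 4 transcripts (0.0348%), which were Mrps17 and Ndufc1, higher in LPS mice, and Adar and Shf, lower in LPS mice. Each of the 4 lacked the value of at least 1 mouse, blanked by the authors as outlying, so this holds over the values that were kept.

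**Figure D1:**
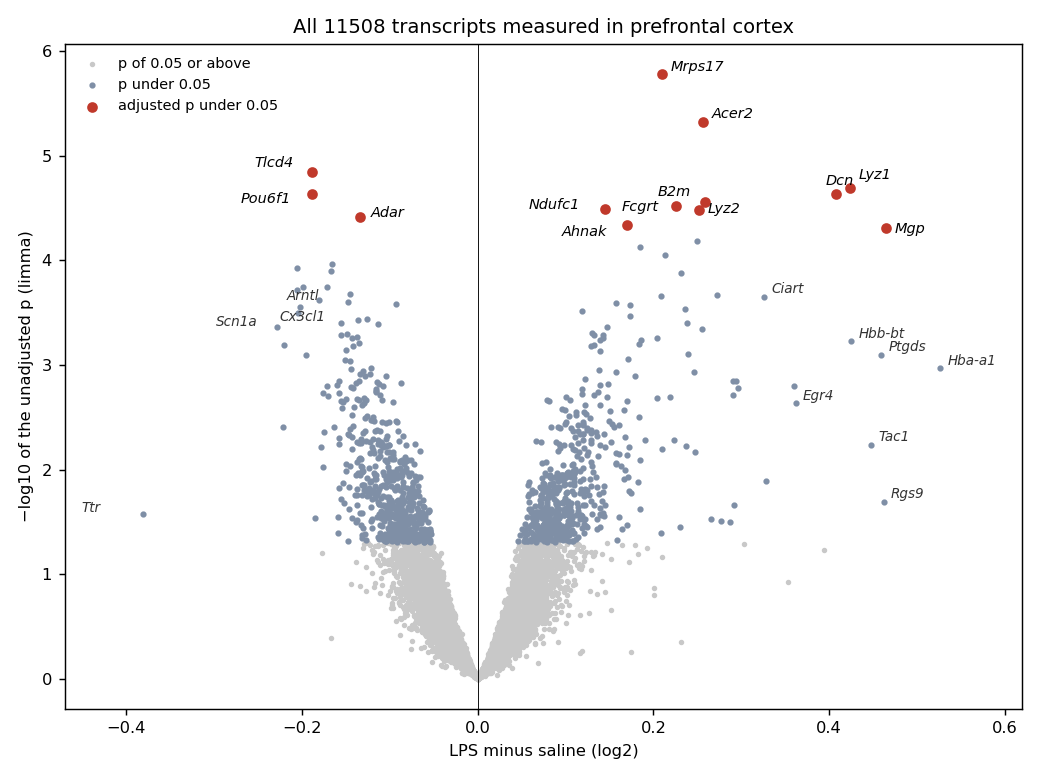
Change after LPS in PFC (log2, x axis) against −log10 of the unadjusted limma p (y axis) for all 11508 transcripts, 1 point each. The 13 transcripts in red passed an adjusted p of 0.05, and the widest changes, up to 0.53 for Hba-a1, belong mostly to transcripts that did not.

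Genes of phagocytes and of antigen handling made up 4 of the 10 transcripts that rose. Lyz1, a lysozyme that breaks bacterial cell walls (chromosome 10, 117287795 to 117292868 in GRCm38.p6), ran from 9.25 to 9.67 in saline mice with a median of 9.45, and from 9.47 to 10.45 in LPS mice with a median of 9.84. It rose by 0.42 (SE 0.0801, 1.34-fold, adjusted p = 0.0377), and 9 of 10 LPS mice lay above every saline mouse. Its neighbour Lyz2 (chromosome 10, 117277541 to 117282272), the lysozyme of macrophages and microglia, ran from 8.43 to 8.70 in saline mice with a median of 8.58, and from 8.60 to 9.03 in LPS mice with a median of 8.83. Lyz2 rose by 0.25 (SE 0.0494, adjusted p = 0.0377), with 7 of 10 LPS mice above all saline mice. The 2 lysozyme genes are near copies of each other, and whether each probe reads only its own gene was not tested.

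Fcgrt and B2m encode the heavy and the light chain of the neonatal Fc receptor, which rescues antibody from breakdown, and B2m is also the light chain of MHC class I. Fcgrt (chromosome 7, 45092993 to 45103822) ran from 9.29 to 9.73 in saline mice with a median of 9.43, and from 9.51 to 9.76 in LPS mice with a median of 9.66. It rose by 0.23 (SE 0.0440, adjusted p = 0.0377). Saline mouse 7, at 9.73, lay above 8 of 10 LPS mice. B2m (chromosome 2, 122147687 to 122153082) was read by 2 probes, and the probe that passed the test ran from 11.53 to 11.99 in saline mice with a median of 11.77, and from 11.91 to 12.20 in LPS mice with a median of 12.02. It rose by 0.26 (SE 0.050, adjusted p = 0.0377), while the brighter probe changed by 0.25 (SE 0.0517, adjusted p = 0.0535). Both probes of B2m were higher in 10 of 10 LPS mice than the saline median.

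The B2m promoter is shown because B2m is a textbook target of interferon and of NF-kB, the factor that Toll-like receptors activate. The window is 250 bases before to 50 after the start of transcription, from RefSeq on GRCm38.p6, chr2:122147437-122147736 on the plus strand. Capitals mark, in order, 1 match to the interferon-stimulated response element and 1 match to the NF-kB site, each searched as a fixed core on both strands.
B2m: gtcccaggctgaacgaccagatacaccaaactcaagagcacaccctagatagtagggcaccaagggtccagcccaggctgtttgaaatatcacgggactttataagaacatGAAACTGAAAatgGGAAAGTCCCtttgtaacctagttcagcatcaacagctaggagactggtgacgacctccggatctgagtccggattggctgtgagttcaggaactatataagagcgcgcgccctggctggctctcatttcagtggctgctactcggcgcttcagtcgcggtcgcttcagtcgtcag
Of 32851 promoter windows in the table, 3.44% hold the first motif and 1.63% the second. Among the 13 transcripts that passed the test, 11 have a window in the table, and B2m was the one with either match. A match describes the letters only and says nothing of binding in these mice.

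Matrix genes of fibroblasts rose as well. Dcn (decorin, a proteoglycan that binds collagen; chromosome 10, 97479500 to 97518163) ran from 9.02 to 9.59 in saline mice with a median of 9.38, and from 9.45 to 10.03 in LPS mice with a median of 9.70. By this, its brighter probe, Dcn rose by 0.41 (SE 0.0780, 1.33-fold, adjusted p = 0.0377), and the other probe changed by 0.15 (SE 0.0424, with an adjusted p of 0.199). Mgp, or matrix Gla protein (which holds back calcification of vessels; chromosome 6, 136872435 to 136875823) ran from 9.61 to 10.33 in saline mice with a median of 9.96, and from 10.09 to 10.84 in LPS mice with a median of 10.38. Mgp rose by 0.46 (SE 0.0941, 1.38-fold, adjusted p = 0.0433). The lowest saline values of both genes came from saline mice 1 to 4, and the 7 LPS mice above every saline mouse in each gene did not set the LPS group wholly apart. Ahnak, a giant scaffold protein under the cell membrane (chromosome 19, 8989284 to 9076935), ran from 8.67 to 8.90 in saline mice with a median of 8.83, and from 8.84 to 9.09 in LPS mice with a median of 9.01. It rose by 0.17 (SE 0.0343, adjusted p = 0.0433), with 8 of 10 LPS mice above all saline mice.

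A pair of mitochondrial transcripts and a ceramidase completed the genes that rose. Mrps17, a protein of the small mitochondrial ribosome subunit (chromosome 5, 129715450 to 129718712), had the smallest p and ran from 11.56 to 11.70 in 9 saline mice with a median of 11.65, and from 11.72 to 11.96 in LPS mice with a median of 11.87. It rose by 0.21 (SE 0.0329, adjusted p = 0.0190), with no overlap of the groups. Ndufc1, a subunit of respiratory complex I (chromosome 3, 51405479 to 51408955), ran from 12.51 to 12.62 in 9 saline mice with a median of 12.58, and from 12.64 to 12.80 in 9 LPS mice with a median of 12.70. It rose by 0.14 (SE 0.0278, adjusted p = 0.0377), again without overlap, and its other probe changed by 0.15 (SE 0.0451, adjusted p = 0.224). Acer2, a Golgi ceramidase that frees sphingosine from ceramide (chromosome 4, 86874348 to 86932524), ran from 8.62 to 9.08 in saline mice with a median of 8.92, and from 9.02 to 9.25 in LPS mice with a median of 9.14. Acer2 rose by 0.26 (SE 0.0437, adjusted p = 0.0270), and 9 of 10 LPS mice lay above all saline mice.

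The 3 transcripts that fell have roles in RNA, transcription and membranes. Adar, which edits adenosine to inosine in double-stranded RNA (chromosome 3, 89714469 to 89753455), ran from 10.29 to 10.40 in 9 saline mice with a median of 10.35, and from 10.15 to 10.29 in LPS mice with a median of 10.21. By that probe it fell by 0.13 (SE 0.0263, adjusted p = 0.0400) without overlap of the groups, whereas the other Adar probe differed by 0.021 in the opposite direction (SE 0.0285, adjusted p = 0.885), so the probes disagree. Pou6f1, a transcription factor of the POU homeodomain family (chromosome 15, 100575318 to 100600061), ran from 10.83 to 11.11 in saline mice with a median of 10.94, and from 10.66 to 10.91 in 9 LPS mice with a median of 10.74. It fell by 0.19 (SE 0.0356, adjusted p = 0.0377). Tlcd4, a membrane protein with a TLC domain (chromosome 3, 121202008 to 121283108), ran from 10.25 to 10.44 in saline mice with a median of 10.32, and from 10.02 to 10.27 in LPS mice with a median of 10.13. It fell by 0.19 (SE 0.0348, adjusted p = 0.0377), and 9 of 10 LPS mice lay below all saline mice.

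**Figure D2:**
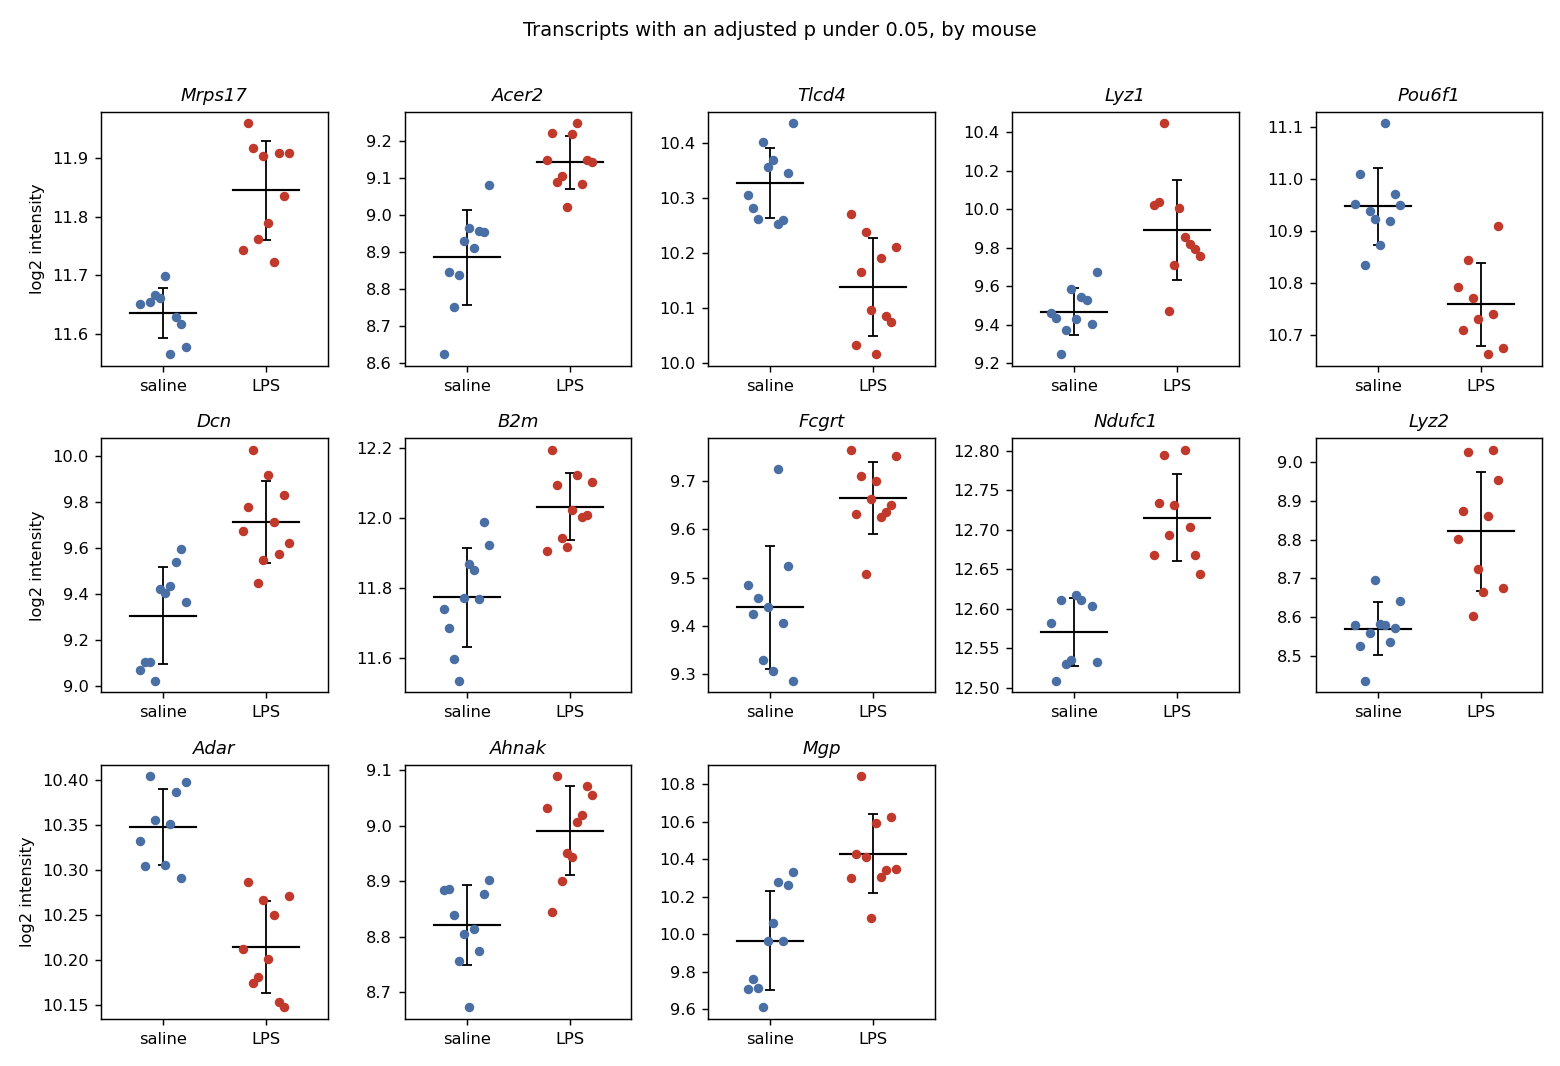
Log2 intensity (y axis) of the 13 transcripts with an adjusted p under 0.05, 1 point per mouse in replicate order from left to right, with the mean and 1 SD of each group. Only Mrps17, Ndufc1 and Adar separate the groups, over values from which the authors had blanked 1 or 2 as outlying, and the 4 lowest saline points of Dcn and Mgp are saline mice 1 to 4.

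With 1 mouse left out at a time it ran from 1 to 19, and Mrps17 passed in all 20 of these fits, Acer2 in 16 and each of the others in 9 or fewer. The count was 1 without saline mouse 2 or 4 or LPS mouse 2 or 7, 2 without saline mouse 1, 5 or 6 or LPS mouse 8, 3 without LPS mouse 9, 4 without saline mouse 3 or 8 or LPS mouse 3, and 5 without LPS mouse 1 or 6. The DE count moved far less, from 978 to 1149.

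Beyond the 13, the genes with the next smallest p, each read by its brightest probe were the following. Higher after LPS were Sun2, of the nuclear envelope, by 0.18 (SE 0.0386, adjusted p = 0.0564), Slc38a2, a neutral amino acid transporter, by 0.21 (SE 0.0451, adjusted p = 0.0639), S100a11, a calcium-binding protein, by 0.23 (SE 0.0509, adjusted p = 0.0752), and Gadd45g, a stress and growth arrest gene, by 0.27 (SE 0.0626, adjusted p = 0.0948). Jmjd6, Ciart, C1qtnf4, Med28 and Klf2 followed, with adjusted p from 0.0948 to 0.0984. Lower were Aak1, a kinase of clathrin-coated vesicles, by a change of -0.17 (SE 0.0355, adjusted p = 0.0735), Zfpm1, a partner of GATA factors, by -0.17 (SE 0.0364, adjusted p = 0.0752), Stard4, a sterol carrier, by -0.17 (SE 0.0387, adjusted p = 0.0945) and Ppfia3, a liprin of the presynaptic active zone, by -0.20 (SE 0.0449, adjusted p = 0.0945). Tshz3, Cds1, Arntl, Shf, Sorl1 and Cx3cl1 followed, with adjusted p from 0.0948 to 0.111. None of these passed the adjusted test.

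Lists of marker and pathway genes were then read 1 probe per gene, where 855 of 8169 genes were DE (10.5%), 4.98% higher and 5.48% lower, and 48.6% of all genes had a change above 0. Of 29 measured microglial genes among 38 listed, 22 had a change above 0, 10 were DE and higher and 1 was DE and lower, with a median change of 0.055 against -0.0014 over all genes. Besides Lyz1 and Lyz2, these were the Fc receptor chain Fcer1g at 0.12, its signalling partner Tyrobp at 0.093, the lipid receptor Trem2 at 0.092, the C1q chains C1qa and C1qb at 0.098 and 0.12, Laptm5, Ly86 and Aif1, the calcium-binding protein stained to show microglia, at 0.087. Gpr34, a lysophospholipid receptor of microglia, was the DE gene in the other direction at -0.073. The homeostatic markers P2ry12 at 0.016, Cx3cr1 at -0.0083 and Tmem119 at 0.054 were not DE. The mean of the 29 genes overlapped between groups, with 6 of 10 LPS mice above every saline mouse.

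The list of Fc receptors, phagocytosis and lysosome overlaps the microglial list and had 37 of 43 genes measured. In it, 33 had a change above 0, 12 were DE and higher and 0 DE and lower, with a median change of 0.050. Examples that the microglial list does not hold are Grn (progranulin, a lysosomal growth factor) at 0.17 (SE 0.0415, adjusted p = 0.105), Ctsh and Ctsc (cathepsins) at 0.10 and 0.067, Cd63 (a lysosomal membrane protein) at 0.14 and the inhibitory Fc receptor Fcgr2b at 0.058. The mean over the 37 genes, less the saline mean, ran from -0.041 to 0.030 in saline mice and from 0.039 to 0.12 in LPS mice, so that the groups did not overlap. This mean holds Lyz1, Lyz2 and Fcgrt, which had already passed the adjusted test on the same mice. Whether the groups stay apart without these 3 genes was not tested. Leaving out 1 mouse at a time gave 9 to 14 DE genes that were higher and 0 that were lower.

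In the complement list, 4 of 10 measured members were DE, all higher, with a median change of 0.064. Serping1, the C1 inhibitor, ran from 8.48 to 8.96 in saline mice with a median of 8.71, and from 8.77 to 9.22 in LPS mice with a median of 8.98, a change of 0.26 (SE 0.0628, adjusted p = 0.116). C4b, of the classical pathway, changed by 0.12 (SE 0.0403, adjusted p = 0.285), and the C1q chains are given above. In 1 fit of all 8 PFC groups of the series, 328 of 10767 transcripts were DE, 173 of them higher. Among its DE and higher genes were 4 of 27 microglial genes, 5 of 36 Fc and lysosomal genes and 2 of 8 complement genes. Of 12 genes of MHC class I and antigen loading, B2m and the immunoproteasome subunit Psmb9 at 0.075 were DE, and 0 of 4 MHC class II genes.

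Interferon-stimulated genes showed 18 of 23 measured members with a change above 0, 5 DE and higher, 1 DE and lower, and a median change of 0.052. Ifitm3, a membrane protein that blocks viral entry, ran from 10.01 to 10.63 in saline mice with a median of 10.16, and from 10.30 to 10.59 in LPS mice with a median of 10.46, a change of 0.24 (SE 0.0624, adjusted p = 0.136). Its relative Ifitm2 changed by 0.18 (SE 0.0490, adjusted p = 0.177), Lgals3bp by 0.17, Ifi27 by 0.17 and Ifit3 by 0.12, and Irf8, a transcription factor that microglia need, by -0.057. The highest saline value of Ifitm3 lay above all LPS values. Members known for the strongest induction by interferon, Isg15 at 0.021 and Rsad2 at -0.0097, were not DE. The count of DE and higher genes was 8 without saline mouse 5, and 2 in the fit of all PFC groups.

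The Ifitm3 promoter carries 2 matches to the core of the interferon-stimulated response element, in capitals, close to the start of transcription. The window is chr7:141010695-141010994 on the minus strand of GRCm38.p6, from RefSeq.
Ifitm3: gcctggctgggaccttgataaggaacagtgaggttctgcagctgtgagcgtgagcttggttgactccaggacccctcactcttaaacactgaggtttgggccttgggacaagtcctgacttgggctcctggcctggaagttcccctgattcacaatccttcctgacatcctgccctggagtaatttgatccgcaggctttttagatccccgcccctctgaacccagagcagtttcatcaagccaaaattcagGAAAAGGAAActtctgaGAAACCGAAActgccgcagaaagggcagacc
Of the 6 DE genes of the interferon list, 5 have a window in the table, and Ifitm3, Ifitm2 and Ifit3 hold this motif.

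Of the genes that sense LPS and carry its signal, 14.3% of those measured were DE, against 10.5% of all genes. Of 21 measured among 48 listed, Ly86 at 0.12 and Tirap, an adaptor of Toll-like receptors, at 0.059 were DE and higher, and Tollip, a brake on the pathway, at -0.079 was DE and lower, with a median of 0.013. The co-receptors Ly96 (MD-2) at 0.029 and Cd14 at 0.0076, and Nfkbia, the inhibitor that NF-kB induces, at 0.038, were not DE. Tlr4, Il1b and Tnf held no values in these arrays and were not analysed here. Of 27 measured cytokine, chemokine and receptor genes, 3 were DE (11.1%), near the share over all genes. They were the neuronal chemokine Cx3cl1 at -0.16 (SE 0.0379, adjusted p = 0.111), Il13ra1 at 0.092 and Cxcl14 at 0.098. Cx3cl1 ran from 12.64 to 12.91 in saline mice and from 12.46 to 12.74 in LPS mice. Of the 48 and 52 genes listed, 21 and 27 had values, so genes below detection took no part.

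**Figure D3:**
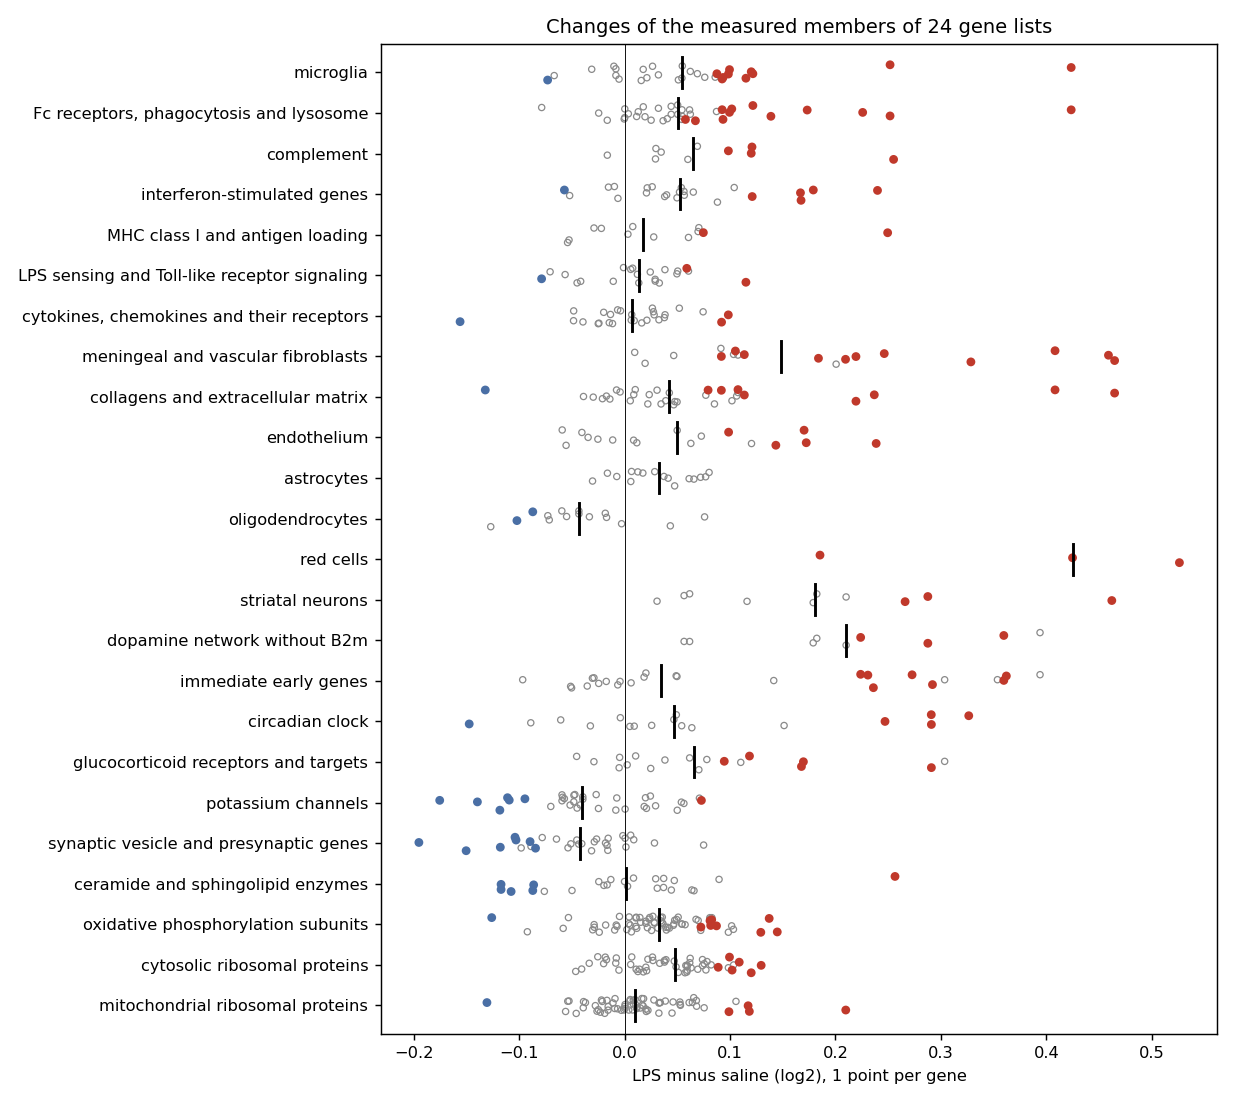
Change after LPS (log2, x axis) of each measured gene of 24 lists, 1 point per gene, with the list median as a black bar. Filled points had an unadjusted p under 0.05 (red higher, blue lower): all 18 fibroblast genes lie above 0, while potassium channel and synaptic genes lie mostly below it.

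All 18 measured genes of meningeal and vascular fibroblasts had a change above 0, 11 of them DE, with a median of 0.149. Apart from Dcn and Mgp, the widest was Ptgds, the prostaglandin D synthase of the meninges, which ran from 11.25 to 12.49 in saline mice with a median of 11.79, and from 12.08 to 12.63 in LPS mice with a median of 12.28, a change of 0.46 (SE 0.120, adjusted p = 0.136). Slc13a4, a sulfate transporter of meninges and choroid plexus, changed by 0.33 (SE 0.122, adjusted p = 0.367), Slc47a1 by 0.25 (SE 0.0668, adjusted p = 0.173) and Ogn (osteoglycin) by 0.22 (SE 0.0634, adjusted p = 0.199). The list mean ran from -0.24 to 0.17 in saline mice and from 0.077 to 0.39 in LPS mice, and saline mice 1 to 4 were the 4 lowest, between -0.24 and -0.11. Without any 1 mouse, 10 to 13 members were DE. Of 33 matrix genes measured, which include Dcn and Mgp, 8 were DE and higher and 1 DE and lower, with Col6a1 at 0.24 and Hapln4, of perineuronal nets, at -0.13. In the fit of all PFC groups, 6 of 14 fibroblast genes and 2 of 27 matrix genes were DE and higher.

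Of 17 endothelial genes, 5 were DE and higher and 0 DE and lower, led by Vwf (von Willebrand factor) at 0.24 (SE 0.0580, adjusted p = 0.111) and Ramp2 at 0.17, but Pecam1 at -0.025 and Flt1 at 0.012 were not DE. The mean of the endothelial list ran from -0.089 to -0.050 in saline mice 1 to 4 and from 0.015 to 0.074 in saline mice 5 to 10, and with the fibroblast list mean as a term 0 endothelial genes were DE. All 3 measured red cell genes were DE. Hba-a1, an alpha globin, ran from 12.77 to 13.37 in saline mice with a median of 13.02, and from 12.66 to 14.41 in LPS mice with a median of 13.61, a change of 0.53 (SE 0.142, adjusted p = 0.170), and LPS mouse 4 was the lowest of all 20 mice. Hbb-bt, a beta globin, changed by 0.42 (SE 0.107, adjusted p = 0.119) and Alas2, the haem synthesis enzyme of red cell precursors, by 0.19. The mean of the 3 red cell genes ran from -0.19 to 0.13 in saline mice and from -0.22 to 1.04 in LPS mice. Of 24 listed genes of blood-borne leukocytes 2 were measured, and Cd52 was DE at 0.10. The part that meninges, vessels and blood in the tissue cut had in the other changes was not tested. With the fibroblast list mean as a term in the model, 9 microglial genes and 9 Fc and lysosomal genes were DE and higher, and with the red cell list mean 7 and 6. With either term 0 transcripts passed the adjusted test, while 769 and 838 were DE. Both list means were themselves higher after LPS, so such a term takes up part of the difference between the groups whatever its source.

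Of the other glia, 0 of 16 astrocyte genes were DE, with 13 above 0 and Gfap at 0.012. Of 10 genes of reactive astrocytes, 8 were above 0 and 3 were DE and higher, Serping1, Vim at 0.097 and Emp1 at 0.056, with a median of 0.054, and the count of 3 was 1 without saline mouse 2, 4 or 10 or LPS mouse 1 or 2. Further, 13 of 15 oligodendrocyte genes had a change below 0, with a median of -0.043. Among the 15, 2 were DE and lower, Olig1 at -0.10 and Ugt8a at -0.087. Leaving out 1 mouse at a time gave 0 to 2 oligodendrocyte genes that were DE and lower. Ugt8a also belongs to the sphingolipid enzymes, where Acer2 rose and 5 of 24 measured genes were DE and lower. They were Gal3st1 at -0.11, Sphk2 at -0.12, Ugcg at -0.12, Sptlc1, of the first step of the pathway, at -0.086, and Ugt8a.

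Genes of striatal projection neurons and of the dopamine network named in the study had changes above 0 throughout, with wide spread between mice. All 10 striatal genes were above 0 and 3 were DE, with a median of 0.181. Rgs9, which ends G protein signals after dopamine, ran from 9.24 to 10.39 in saline mice with a median of 9.75, and from 9.35 to 11.36 in LPS mice with a median of 10.13, a change of 0.46 (SE 0.186, adjusted p = 0.425). The groups overlapped broadly, and LPS mouse 3 was the highest of all 20 mice. Ppp1r1b changed by 0.29 (SE 0.126, adjusted p = 0.468) and Gng7 by 0.27 (SE 0.115, adjusted p = 0.457), whereas Drd1 at 0.18 and Drd2 at 0.056, the dopamine receptors, were not DE. The neuropeptide gene Tac1, which is in neither list, changed by 0.45 (SE 0.148, adjusted p = 0.281). It was listed with cortical neuropeptides, of which 6 of 12 were above 0, with a median of -0.015. It was also listed with cortical interneurons, where 7 of 13 were above 0, with a median of 0.0089. The striatal list mean ran from -0.25 to 0.31 in saline mice and from -0.20 to 0.82 in LPS mice. In the fit of all PFC groups, where 328 of 10767 transcripts were DE, 0 striatal genes were. With the fibroblast or red cell list mean as a term 0 striatal genes were DE as well. With array weights, or with an intensity trend in the variance prior, 6 were DE and higher.

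Single mice decided the striatal count. It was 1 without saline mouse 9 or LPS mouse 2 or 3, 5 without saline mouse 1, and 7 without saline mouse 6 or LPS mouse 6. Of the genes that the study's text names in a dopamine network drawn from its arrays of Chronic Intermittent ethanol, 9 of 9 measured were above 0 and 3 were DE, Egr2, Fosb and Ppp1r1b. That count was 5 without saline mouse 1 or LPS mouse 5, 7 without saline mouse 6 or LPS mouse 6, and 0 with the fibroblast list mean as a term. It was 7 with array weights or an intensity trend in the variance prior, 5 with the replicate block and 2 with the red cell list mean. Pde1b at 0.18, Pdyn at 0.21 and Pde10a at 0.062 were not DE. How much striatum each cut of tissue held was not tested.

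Immediate early genes, which neurons switch on within minutes of activity, were higher in 7 DE members of 26 measured and lower in 0, with a median change of 0.034. Egr4 ran from 9.69 to 10.90 in saline mice with a median of 10.61, and from 10.75 to 10.92 in LPS mice with a median of 10.88, a change of 0.36 (SE 0.106, adjusted p = 0.203). Egr2 at 0.36, Junb at 0.29, Gadd45g at 0.27, Klf2 at 0.24, Egr1 at 0.23 and Fosb at 0.22 were the others. Fos itself ran from 8.91 to 11.07 in saline mice and from 10.32 to 11.27 in LPS mice, a change of 0.39 (SE 0.199, p = 0.0593). Saline mice 1 and 2 had the lowest Fos values, and the list mean was lowest in saline mice 1 and 2, at -0.34 and -0.20. Over all saline mice the list mean had a median of 0.054 and a maximum of 0.17. In LPS mice it ran from 0.044 to 0.19, and 1 of them lay above every saline mouse.

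The circadian clock runs on a loop in which ARNTL and CLOCK bind E-boxes and drive Per, Cry, Ciart and Dbp. The products of Per, Cry and Ciart then shut the loop. Arntl is itself driven through a ROR response element and peaks at the opposite time of day. Of 17 clock genes measured, 4 were DE and higher, Ciart, Per2, Per1 and Dbp, and 1 was DE and lower, Arntl. Ciart ran from 8.86 to 9.70 in saline mice with a median of 9.42, and from 9.57 to 9.87 in LPS mice with a median of 9.73, a change of 0.33 (SE 0.0752, adjusted p = 0.0948). Per1 ran from 9.84 to 10.78 in saline mice and from 10.54 to 10.74 in 9 LPS mice, a change of 0.29 (SE 0.0832, adjusted p = 0.199), and Per2 changed by 0.29 (SE 0.0807, adjusted p = 0.187). Arntl ran from 8.97 to 9.23 in saline mice with a median of 9.08, and from 8.80 to 9.04 in LPS mice with a median of 8.93, a change of -0.15 (SE 0.0343, adjusted p = 0.0953). For Per1 all LPS values lay inside the saline range, for Per2 1 LPS mouse lay above it and for Ciart 6 did. The list mean ran from -0.19 to -0.013 in saline mice 1 to 6 and from 0.0047 to 0.16 in saline mice 7 to 10. In LPS mice it ran from 0.0087 to 0.14. Leaving out 1 mouse kept 4 to 5 genes DE and higher and 1 to 2 DE and lower. In liver of the LPS test, Ciart changed by 0.51 (SE 0.0747, adjusted p = 0.00183) and Per1 by 0.48 (SE 0.0835, adjusted p = 0.00674). Tissue was taken in the hours just after noon, and the time for each mouse was not given in the sources used here.

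The promoters of 3 of these genes are shown since they hold the motifs of that loop. Capitals mark the E-box CACGTG in Ciart and Per1, the D-box TTATGNAA in Per1 and the core of the ROR response element in Arntl, all searched on both strands. The windows are chr3:95882179-95882478 on the minus strand for Ciart, chr11:69098699-69098998 on the plus strand for Per1 and chr7:113207261-113207560 on the plus strand for Arntl, from RefSeq on GRCm38.p6.
Ciart: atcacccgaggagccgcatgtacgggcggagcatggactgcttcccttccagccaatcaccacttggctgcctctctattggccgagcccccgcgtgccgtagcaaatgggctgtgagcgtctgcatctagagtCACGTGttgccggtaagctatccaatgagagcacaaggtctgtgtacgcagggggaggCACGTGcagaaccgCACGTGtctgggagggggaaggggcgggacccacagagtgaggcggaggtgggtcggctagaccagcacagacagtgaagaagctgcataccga
Per1: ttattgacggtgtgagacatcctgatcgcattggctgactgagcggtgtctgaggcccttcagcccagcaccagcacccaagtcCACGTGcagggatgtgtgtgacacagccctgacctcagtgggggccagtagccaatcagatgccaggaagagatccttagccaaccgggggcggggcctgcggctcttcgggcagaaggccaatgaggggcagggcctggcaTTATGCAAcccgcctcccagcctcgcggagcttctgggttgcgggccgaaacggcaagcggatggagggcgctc
Arntl: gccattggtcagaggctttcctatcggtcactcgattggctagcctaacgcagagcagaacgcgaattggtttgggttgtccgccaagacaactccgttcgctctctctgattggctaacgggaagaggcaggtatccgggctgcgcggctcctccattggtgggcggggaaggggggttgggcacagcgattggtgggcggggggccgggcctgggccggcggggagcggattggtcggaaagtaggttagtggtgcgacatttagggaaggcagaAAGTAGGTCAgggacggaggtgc
Ciart holds 3 E-boxes, Per1 1 E-box and 1 D-box, and Arntl 1 ROR response element. Of all 32851 windows, 7.15% hold an E-box, 3.38% a D-box and 0.219% a ROR response element. The Dbp window holds none of the 3 motifs.

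Glucocorticoids, the stress hormones, act on Per1 as well, and 5 of 18 measured receptor and target genes were DE and higher, with a median of 0.066. Sgk1, a kinase that they induce, changed by 0.17 (SE 0.0755, adjusted p = 0.477), Sult1a1 by 0.17, Bcl6 by 0.12 and Cdkn1a by 0.094, Per1 was the fifth, while Fkbp5 at 0.025 and Tsc22d3 at 0.11, a pair of strongly induced targets, were not DE. The list mean was lowest in saline mice 1 to 4, from -0.14 to -0.046, against 0.0046 to 0.13 in saline mice 5 to 10. The count was 2 without saline mouse 2 or 4, and 3 without LPS mouse 2, 7 or 8. With the fibroblast list mean as a term, 0 glucocorticoid genes, 1 immediate early gene and 1 of the clock genes were DE and higher.

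**Figure D4:**
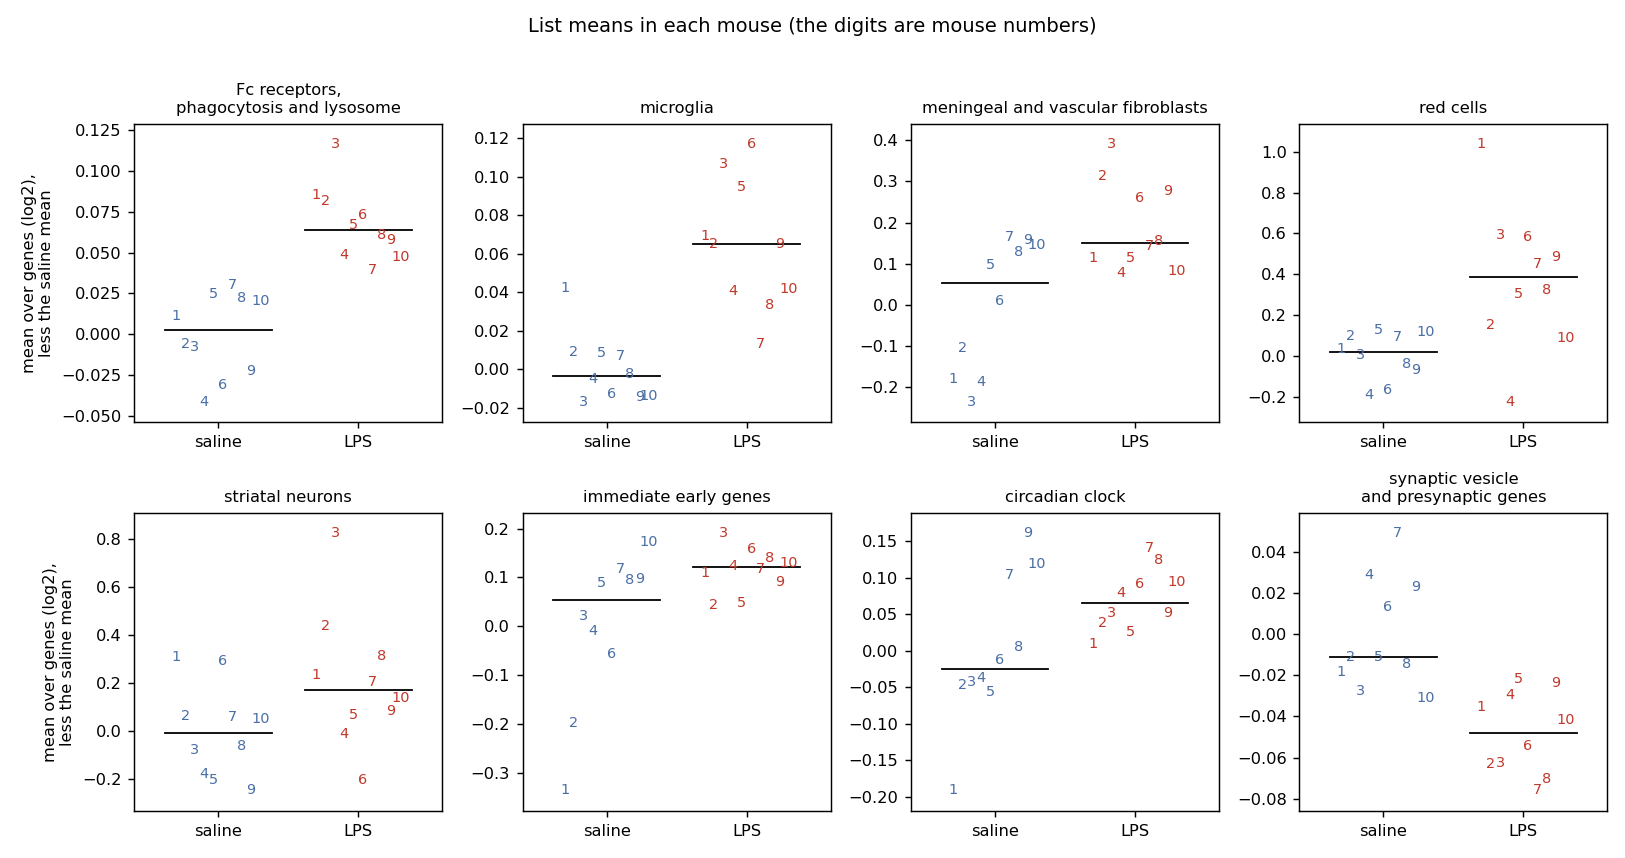
Mean over the measured genes of 8 lists in each mouse (log2, less the saline mean, y axis), with digits for mouse numbers and a bar at each group's median. The Fc receptor and lysosome list, which holds Lyz1, Lyz2 and Fcgrt of the 13 called transcripts, separates the groups. Saline mice 1 to 4 are the lowest for fibroblasts.

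Genes of neuronal excitability and transmitter release lay mostly below 0. Of 34 potassium channel genes measured, 6 were DE and lower and 1 DE and higher, with 11 above 0 and a median change of -0.041. They were Kcnc4 at -0.11 (SE 0.0317, adjusted p = 0.199), the calcium-gated channel Kcnma1 at -0.18 (SE 0.0558, adjusted p = 0.267), Kcnab2, Kcnv1, Kcnk2 at -0.14 and Kcnh1, and Kcnip2 was the higher one at 0.073. Of 30 synaptic vesicle and presynaptic genes, 7 were DE and lower, 0 DE and higher, and 6 above 0, with a median of -0.042. Napb, which helps to recycle the fusion machinery, ran from 12.54 to 13.08 in saline mice with a median of 12.71, and from 12.46 to 12.66 in LPS mice with a median of 12.53, a change of -0.20 (SE 0.0509, adjusted p = 0.136). Syngr1 at -0.15, Vamp1 at -0.12, the synapsins Syn1 at -0.10 and Syn2 at -0.10, Pclo and Syt4 were the others. Scn1a, the sodium channel of fast-spiking interneurons, had the widest decrease of the DE genes after Ttr, at -0.23 (SE 0.0556, adjusted p = 0.114). Of 13 markers of projection neurons, 8 were above 0 and Tbr1, at -0.12, was the DE member. In the fit of all PFC groups, 0 of 32 potassium channel and 0 of 30 synaptic genes were DE. Only 155 of 10767 transcripts were DE and lower in that fit, so 0 in lists of this size says little.

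Of 68 subunits of oxidative phosphorylation, 55 had a change above 0, 8 were DE and higher and 1, Cox8a at -0.13, DE and lower, with a median of 0.033. After Ndufc1, Ndufs4 changed by 0.14 (SE 0.0391, adjusted p = 0.198), Atp5pb by 0.13 and Ndufs3 by 0.072. Of 52 cytosolic ribosomal proteins, 42 were above 0 and 6 DE and higher, such as Rps4x at 0.12, with a median of 0.048. Of 67 mitochondrial ribosomal proteins, 43 were above 0, and Mrps17, Mrpl22 at 0.12, Mrps6 at 0.12 and Mrps21 at 0.099 were DE and higher and Mrpl2 at -0.13 DE and lower. That count of 4 DE and higher was 7 without saline mouse 3 or LPS mouse 2, and 2 without LPS mouse 7. The DE share was 13.2% of the first list, 11.5% of the second and 7.46% of the third, against 10.5% of all genes. In the fit of all PFC groups, where 328 of 10767 transcripts were DE, 0 genes of the first and second of these lists were. Ttr (transthyretin, made by the choroid plexus) had the widest decrease, from a median of 8.86 in 9 saline mice to 8.44 in 9 LPS mice. The change was -0.38 (SE 0.160, adjusted p = 0.449), the groups overlapped, and the LPS median lay near the lowest intensities. Without saline mouse 2 or saline mouse 6 Ttr was not DE. It was the DE member of 4 choroid plexus and ependyma genes measured, whose median was -0.0036.

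The LPS effect in PFC was set against the LPS effect in liver for 8167 transcripts measured in both, with a test of the difference itself. The difference passed an adjusted p of 0.05 for 22 transcripts (0.269%), 11 in each direction. The smallest p belonged to Hsd3b7, of bile acid synthesis, which changed by 0.096 in PFC and by -0.31 in liver, a difference of 0.41 (SE 0.0671, adjusted p = 0.00137). Nt5e, which makes adenosine outside cells, changed by 0.089 in PFC and -0.53 in liver, a difference of 0.62 (SE 0.102, adjusted p = 0.00137), and Scd1, a fatty acid desaturase, by -0.51 (SE 0.0896, adjusted p = 0.00334), with a change of -0.15 in PFC and 0.36 in liver. Gne, of sialic acid synthesis, at -0.33 (SE 0.0627, adjusted p = 0.00952) and Maco1 at -0.35 (SE 0.0693, adjusted p = 0.0124) followed. By the study's methods, brain and liver were dissected at the same time in each group, so both tissues came from the same mice. The labels tie no liver array to a PFC array, so all arrays were treated as independent. The p-values of the difference therefore leave this pairing out.

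Genes of the interferon list were among those that differed between the tissues, as was B2m. Ifit3 changed by 0.12 in PFC and -0.37 in liver (difference 0.49, SE 0.107, adjusted p = 0.0364), Ifi27 by 0.17 and -0.22 (difference 0.39, SE 0.0889, adjusted p = 0.0370), Irf9, which carries the interferon signal to the nucleus, by 0.038 and -0.20 (difference 0.24, SE 0.0532, adjusted p = 0.0364), and B2m by 0.26 and -0.068 (difference 0.33, SE 0.0737, adjusted p = 0.0370). In liver, 11 of the 23 interferon genes were DE and lower and 0 higher, where 5.38% of all liver transcripts were DE and lower and 6.21% DE and higher. The other 20 interferon genes did not pass the test of the difference. Ndufc1 changed by 0.14 in PFC and -0.098 in liver (difference 0.24, SE 0.0552, adjusted p = 0.0373). For Dcn, Lyz1, Lyz2, Acer2 and Mgp the difference between tissues did not pass.

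Against ethanol drinking in PFC, the difference passed for 4 of 11069 transcripts (0.0361%; 7.59% had an unadjusted p under 0.05) with Drinking in the Dark (DID), where mice get ethanol for a few hours a day, and for 0 of 10926 with Chronic Intermittent (CI) access, where 533 had an unadjusted p under 0.05 (4.88%). The 4 were Swt1, an RNA endonuclease, at 0.11 after LPS and -0.16 in DID (difference 0.28, SE 0.0510, adjusted p = 0.0273), Dcn at 0.41 and -0.20 (difference 0.61, SE 0.115, adjusted p = 0.0273), Acer2 at 0.26 and -0.075 (difference 0.33, SE 0.0660, adjusted p = 0.0389) and Lyz1 at 0.42 and -0.12 (difference 0.54, SE 0.112, adjusted p = 0.0480). All 4 had a change above 0 after LPS and below 0 in DID. Each of these paradigms has its own control mice and was normalized on its own, and DID mice were killed in the dark phase of a reversed light cycle, so phase of the light cycle and paradigm cannot be told apart.

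**Figure D5:**
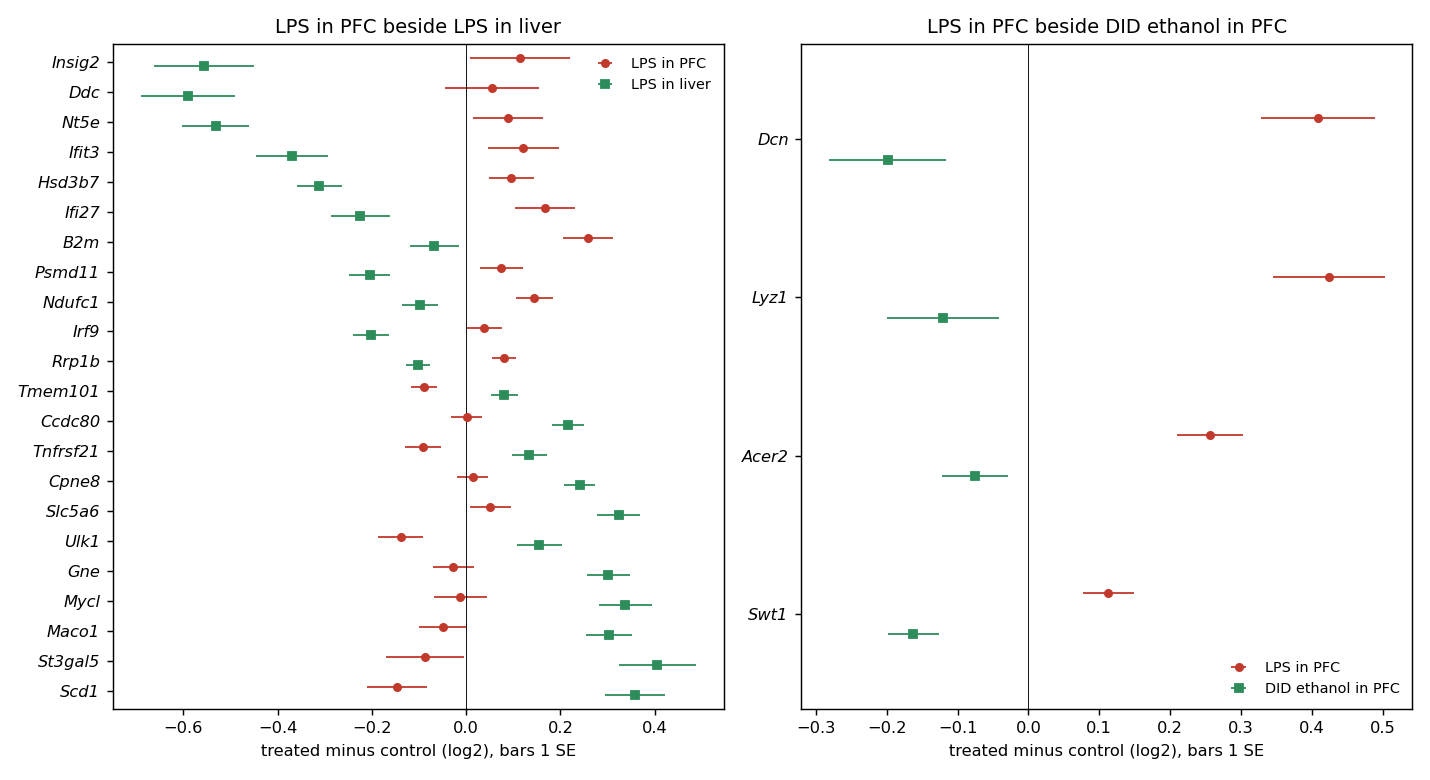
Change after LPS in PFC (red circles) beside the change after LPS in liver (left, 22 transcripts) and after DID ethanol in PFC (right, 4 transcripts), in log2 with bars of 1 SE, for transcripts whose difference passed an adjusted p of 0.05. Dcn, Lyz1, Acer2 and Swt1 lie above 0 after LPS and below 0 in DID.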

How the data were processed

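RNA of 1 mouse per array was hybridised to Illumina MouseRef-8 beadchips, which were counter-balanced over groups; the beadchip of each array is not in the labels and could not be tested. The deposited values are log2 intensities that the authors made with lumi, by a variance stabilising transform and quantile normalization within each paradigm and tissue, after which they kept probes detected in most arrays and blanked outlying values. Such blanking narrows the spread, so p-values may be too small. Of 13983 probes, 13181 carried 1 gene symbol and 802 none. The bead signals of 158 columns, 20 of them for LPS in PFC, carry running numbers that no label ties to a sample and were not used.

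LPS and saline arrays were compared in limma 3.58.1 (R 4.3.3), with no other samples and no covariate, Benjamini-Hochberg adjustment over all transcripts and an unadjusted p under 0.05 called DE, as in the study. Differences between tissues or paradigms were interaction terms of a joint fit. In simulated data of 11508 probes for the PFC comparison, 86% of changes of 0.2 and 100% of changes of 0.5 (log2) were recovered. There, 200 probes were changed and the noise was drawn independently for each value. The adjusted test is easier to pass when more probes change, and 13 transcripts passed in the mice. These rates therefore do not give the share of real changes that was found. Precision is limited by how many arrays there were, and p-values measure the spread between these mice. Named genes were those past the adjusted test, the next 10 by p and the 10 largest in each direction, up to 4 members per list and defining members, and the 5 smallest adjusted p of each interaction; a few further list members were named after their values were seen. The members and lists were chosen with earlier results of these data known. B2m was taken out of the dopamine network after the data were seen, since the study does not name it there. Genes with several probes were given by the brightest. Alternatives covered blanks, array weights, a replicate block, the variance prior, dim probes, centring, all PFC groups, list means as terms and leaving out each mouse.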

Additional observations from a re-analysis of the deposited data

Results flagged for a closer look

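In groups of 10 mice, 1 mouse stood far from the others in 15 of 442 groups of values (3.39%). Chance gives about 1 in 20 for values as measured, a rate that does not apply here because the authors had already blanked outlying values. LPS mouse 4 was highest for Zfpm1 at 11.10 and Gal3st1 at 9.40. LPS mouse 6 was lowest for Grn at 9.87 and Kcnk2 at 9.54, and highest for P2ry12 at 8.89. LPS mouse 3 was highest for the neuropeptide genes Cartpt at 10.21 and Pdyn at 11.38, and lowest for Rpl35 at 13.14. LPS mouse 10 was lowest for Cd63 at 10.74. Among saline mice, mouse 7 was lowest for Ndufs4 at 11.60, mouse 1 lowest for Kcnc4 at 11.64 and mouse 6 highest for Pdyn at 10.94. Saline mouse 1 was highest in the mean of the microglial list at 0.042, and saline mouse 2 in the mean of the choroid plexus list at 0.32. LPS mouse 3 was highest in the mean of the dopamine network genes at 0.62.

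The LPS effect in PFC differed from that of DID ethanol for Dcn by 0.61, Lyz1 by 0.54, Acer2 by 0.33 and Swt1 by 0.28. It differed from the LPS effect in liver for Nt5e by 0.62, Ifit3 by 0.49, Hsd3b7 by 0.41, Ifi27 by 0.39, B2m by 0.33 and Ndufc1 by 0.24, and in the other direction for Scd1 by -0.51, Maco1 by -0.35 and Gne by -0.33. Each passed the interaction test of limma at an adjusted p under 0.05.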

How the results depend on the processing

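The 13 transcripts past the adjusted test became 7 with complete probes and 0 with the fibroblast or red cell mean as a term or in 1 fit of all PFC groups. With the striatal list mean as a term 2 transcripts passed, 1 of them among the 13. The 1103 DE transcripts became 328 in that fit and 321 at p under 0.01. Leaving out 1 mouse gave 1 to 19 past the adjusted test, with values of 1 to 5 in 14 of the fits. Leaving out saline mice 1 to 4 together was not tried. Same-number correlations ran from -0.106 to 0.172 and 4 arrays correlated best with their own number. Replicate numbers thus showed no clear pairing of the mice, but this check cannot exclude one. With the replicate block 1 transcript passed, and 0 of the 13. The count of differences from liver was 13 with complete probes, 66 with array weights and 38 with the replicate block, against 22; that from DID was 8 with array weights and 0 with the replicate block, against 4. With the fibroblast term Fos was at -0.042, Gfap at -0.0073 and P2ry12 at -0.023, and with the red cell term Gfap was at -0.0021. Over the fits without 1 mouse, Cx3cr1 ran from -0.043 to 0.012, above 0 in 7 of them, and P2ry12 from -0.0098 to 0.032. None of these was DE in the main comparison, and the cause was not tested. Values near the lowest intensities limit what decreases could be seen.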
